A study of Mus musculus with 9 samples.

Results

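A vitamin A deficient diet was compared with a vitamin A sufficient diet in the right ventricle of male mice labelled Lrat-/-, across 22061 genes. The comparison took 6 of the series' 9 arrays, chosen by their sample titles: 3 from mice labelled Lrat-/- that ate the deficient diet and 3 from mice labelled Lrat-/- that ate the sufficient diet. The sufficient chow was the deficient one with 250000 U/kg of retinol palmitate added, against 0 U/kg added in the deficient chow, and both diets lasted 50 days. The other 3 arrays, from wild-type males on the sufficient diet, are shown beside the results and share in the estimate of the spread. All 6 arrays of the comparison therefore carry the Lrat-/- label, so diet is the one labelled difference between them. RNA came from whole right ventricle cut away along the septum, 1 array per sample. In such bulk tissue, fewer cells of a type and less RNA per cell cannot be told apart. Nothing in the labels ties each sample to its own animal. A p-value here therefore weighs only how these samples scatter, and that scatter may be technical.

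Vitamin A reaches tissues as retinol bound to a plasma carrier or as retinyl esters in lipoproteins. Lecithin-retinol acyltransferase, the product of Lrat, esterifies retinol for storage, and mice without it keep almost no retinyl esters in the liver and depend more on the diet. Inside cells retinol is oxidised to retinal and then to retinoic acid, which binds nuclear receptors of the RAR family. These pair with RXR receptors on DNA and switch on, among others, the genes that dampen the signal. In the heart retinoic acid is known for patterning the chambers in the embryo, and in adult hearts for effects on growth, matrix and metabolism.

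Values are log2 signals from the RMA method, so a difference of 1 is a doubling of the signal. The median log2 signal of the arrays ranged from 7.1568 to 7.2103, and the correlation between any pair of arrays over all genes ranged from 0.987 to 0.998. All 18 ventricular cardiomyocyte markers were above the mean of the 5222 negative-control probe sets, which averaged 5.69 in deficient, 5.67 in sufficient and 5.56 in wild-type arrays. The arrays numbered 3 stood apart in each group: a first principal component that took up 28.4% of the variance had loadings of 0.385 in the deficient, 0.581 in the sufficient and 0.365 in the wild-type array numbered 3, against -0.429 to -0.088 in the other 6 arrays. Differences are therefore also given between arrays of the same number.

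No gene passed the test for diet. With limma and Benjamini-Hochberg adjustment over all 22061 genes, 0 genes (0%) were called higher and 0 (0%) lower at an adjusted p under 0.05, and the lowest adjusted p was 1. At an unadjusted p under 0.05 there were 290 genes (1.31%), of which 98 (0.444%) were higher and 192 (0.87%) lower on the deficient diet. Of evenly spread p-values a fraction of 0.05 would lie there, so 1.31% is no excess. With the replicate number as a block, limma still called 0 genes and 533 had an unadjusted p under 0.05. Without the arrays numbered 3 that number was 580, again with 0 calls. With arrays weighted by their quality limma called 2 genes lower, of which Ccl6 is described below with the macrophage genes. The 3 deficient and 3 sufficient arrays did not overlap for 1151 genes (5.22%), 432 (1.96%) with the deficient arrays higher and 719 (3.26%) with them lower. What share would lie apart without any diet difference was not tested, so these counts alone show no excess either. The median gene had an SD of 0.0964 in deficient and 0.1 in sufficient arrays. The 95% interval of its difference reached 0.234 to either side, a 1.18-fold change in signal, and its absolute difference was 0.0612. A difference of more than 0.5 was measured for 48 genes, 27 higher and 21 lower, and one of more than 1 for 8 genes. These intervals come from 3 arrays per diet and a fit without the replicate number. Whether the number of arrays or scatter tied to the replicate number set their width was not tested.

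**Figure D1:**
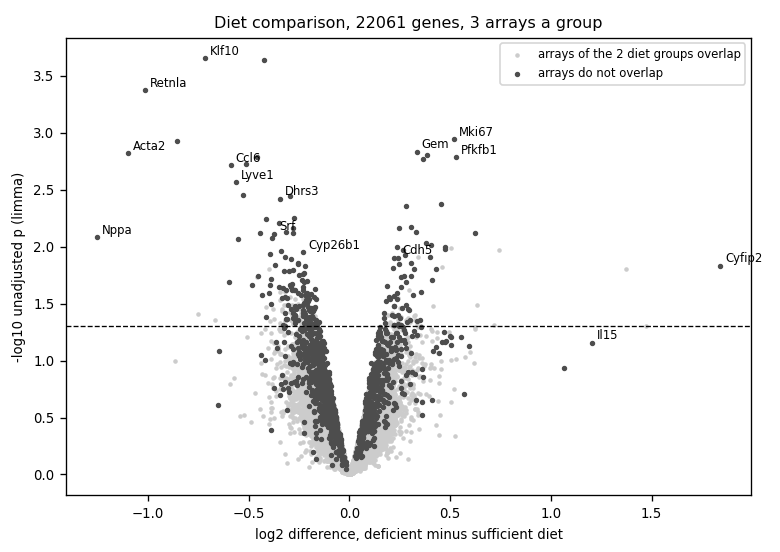
Log2 difference, deficient minus sufficient diet (x axis), against -log10 of the unadjusted limma p (y axis) for 22061 genes. Dark points are the 1151 genes whose 3 deficient and 3 sufficient arrays do not overlap, the dashed line is an unadjusted p of 0.05, and Klf10 has the lowest p among the named genes.

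The targeted gene was read first. Lrat had log2 signals of 7.58, 7.69 and 7.81 in deficient arrays, 7.88, 7.64 and 8.09 in sufficient arrays and 6.35, 6.24 and 6.43 in wild-type arrays. All 6 arrays labelled Lrat-/- lay above the 3 wild-type arrays, which goes against a loss of the transcript, and where this probe set lies relative to the deleted part of the gene is not known here, so it checks nothing about the label. Between the diets the arrays overlapped, with a difference of -0.18 (95% interval -0.44 to 0.09).

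The genes that act on retinoids differed little between the diets. Among those with signal above the negative controls, the lowest p belonged to enzymes that remove retinoic acid or its precursor. Of 64 genes of the retinoid pathway, all measured and 55 above the negative controls, 25 were higher and 39 lower on the deficient diet, with a median difference of -0.023 against -0.011 over all genes. Dhrs3, which reduces retinal back to retinol, had 10.18, 9.99 and 10.16 in deficient arrays, 10.43, 10.43 and 10.50 in sufficient arrays and 10.65, 10.89 and 10.63 in wild-type arrays. The diet groups did not overlap, and the difference was -0.34 (95% interval -0.54 to -0.14, limma unadjusted p = 0.00379). Cyp26b1, which oxidises retinoic acid for removal, had 7.11, 7.06 and 7.08 in deficient arrays, 7.28, 7.28 and 7.36 in sufficient arrays and 7.48, 7.35 and 7.55 in wild-type arrays. Its groups did not overlap either, with a difference of -0.23 (95% interval -0.39 to -0.07, limma unadjusted p = 0.0111). For both genes the wild-type mean lay on the far side of the sufficient mean from the deficient one.

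Among the 19 genes of uptake, binding and storage, 9 were higher and 10 lower and none separated the diet groups. The widest difference was that of Rbp7, a cellular retinol-binding protein of capillary endothelium, with 8.03, 8.48 and 8.88 in deficient arrays against 7.79, 8.14 and 8.10 in sufficient arrays (0.45, 95% interval -0.11 to 1.01). The retinol receptor gene Stra6 differed by -0.06. Of 21 genes that convert retinol and retinal, 6 were higher and 15 lower. Beside Dhrs3 the arrays of Rdh13 (-0.12) and Rdh12 (-0.19, below the negative-control mean in both diet groups) did not overlap. That makes 3 of 21 on the lower side beside 3.26% of all genes, but only Dhrs3 lay clearly apart. The nearest deficient and sufficient arrays lay at 9.06 and 9.07 for Rdh13, and both rounded to 5.26 for Rdh12. Of the retinal dehydrogenases that make retinoic acid, Aldh1a1 differed by -0.06, Aldh1a2 by -0.01 and Aldh1a3 by 0.04. Aldh8a1, whose signal was not above the negative-control mean in either diet group, had non-overlapping arrays and a difference of 0.25. The 15 receptors and coregulators were all above the negative controls, 6 higher and 9 lower, with no separated gene. Their differences were -0.05 for Rara, -0.22 for Rarb, -0.10 for Rarg, -0.02 for Rxra, -0.19 for Rxrb and -0.05 for Rxrg. That of Rxrb was -0.03, 0.00 and -0.55 between the arrays numbered 1, 2 and 3, and -0.04 without the sufficient array numbered 3.

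Known target genes of retinoic acid were mostly a little lower on the deficient diet. Of 37 targets, all measured and 32 above the negative controls, 31 were lower and 6 higher, while over all genes 12077 were lower and 9972 higher. The median difference of the list was -0.048, and it was -0.005 between the arrays numbered 1, -0.090 between those numbered 2 and -0.044 between those numbered 3. It ranged from -0.075 to -0.042 when 1 array of either diet group was left out, and was -0.054 without the arrays numbered 3. The diet groups did not overlap for 4 targets with lower signal, namely Dhrs3, Cyp26b1, Hoxb2 (-0.17) and Hoxb4 (-0.11), and for 1 with higher signal, Sox9 (0.09). That is 4 of 37 on the lower side, beside the 3.26% of all genes, and 1 of 37 on the higher side, beside 1.96%. The nearest deficient and sufficient arrays both rounded to 6.33 for Hoxb4 and to 7.45 for Sox9. These genes therefore lay apart by less than the rounding. Rarb, the receptor gene that is itself a classic target, had 9.58, 9.58 and 9.27 in deficient arrays and 9.93, 9.58 and 9.58 in sufficient arrays, so its groups touched (difference -0.22, 95% interval -0.54 to 0.10). Cyp26a1, the other classic target and a retinoic acid hydroxylase, was not above the negative controls in either diet group, with 5.74, 5.70 and 5.28 in deficient and 5.70, 5.70 and 5.56 in sufficient arrays.

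The promoters of Rarb and Cyp26a1 are printed because they carry the direct repeat through which RAR and RXR are known to act. Each run is the 250 bases before the RefSeq start of the gene on its own strand (GRCm38.p6), and capitals mark the match. The search took a pair of hexamer sites, each either AGGTCA or one of its near variants, which were AGTTCA, then GGGTCA, and lastly GGTTCA, spaced 2 or 5 bases apart, on both strands. Rarb lies at chr14:16575477-16575726 on the minus strand, with the repeat starting 53 bases before the start, and Cyp26a1 at chr19:37697558-37697807 on the plus strand, with it starting 32 bases before.
Rarb: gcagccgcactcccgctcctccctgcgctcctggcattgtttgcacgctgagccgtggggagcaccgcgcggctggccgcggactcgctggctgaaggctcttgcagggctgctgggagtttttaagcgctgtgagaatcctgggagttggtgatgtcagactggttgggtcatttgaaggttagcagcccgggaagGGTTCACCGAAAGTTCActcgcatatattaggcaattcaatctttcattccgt
Cyp26a1: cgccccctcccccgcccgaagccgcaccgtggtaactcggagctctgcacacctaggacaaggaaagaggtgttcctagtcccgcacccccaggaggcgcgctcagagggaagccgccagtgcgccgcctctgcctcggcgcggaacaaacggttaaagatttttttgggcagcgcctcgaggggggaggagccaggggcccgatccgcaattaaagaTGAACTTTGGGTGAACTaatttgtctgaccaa
Of the 27025 genes with a promoter in the table, 83 (0.307%) held such a repeat in this window. Of the 37 targets, 22 had a promoter there and 2, these, held the repeat. None of the 15 leading lower genes or 14 leading higher genes (below) with a promoter in the table held it. A match describes the letters, not a bound site.

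**Figure D2:**
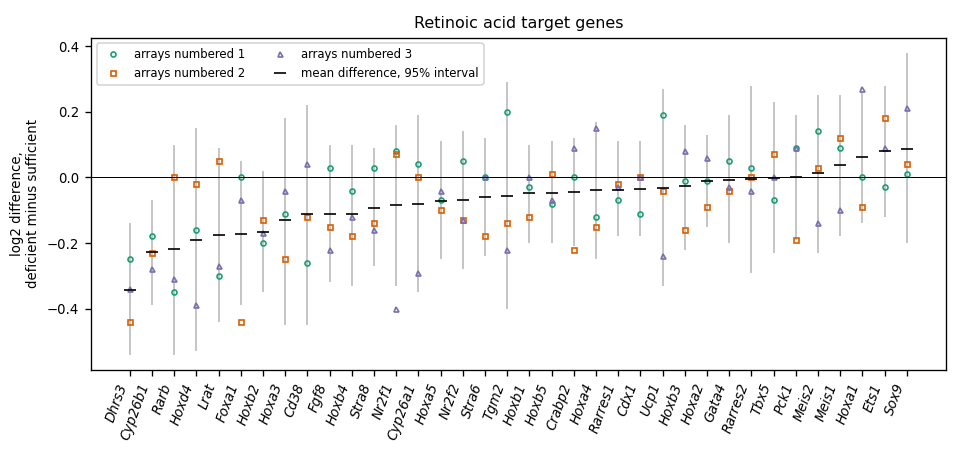
Log2 difference, deficient minus sufficient diet (y axis), of 36 of the 37 retinoic acid target genes, ordered by size. Bars mark the mean difference, grey lines its 95% interval and open symbols the difference between arrays of the same number. Of the 36 means shown, 30 lie below 0 and 1 more, counted as lower in the text, rounds to 0, with Dhrs3 at -0.34 and Cyp26b1 at -0.23.

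Among the genes kept for naming, those that most clearly separated the diets with lower signal on the deficient diet included cardiac, smooth muscle and macrophage genes. Left out beforehand were predicted and clone-named genes, small RNA genes, smell, vomeronasal and taste receptors, and immunoglobulin and T cell receptor segments. Genes above the negative-control mean in neither diet group were left out too. The leading genes are the 12 with the lowest unadjusted p among kept genes whose arrays did not overlap, and the 6 further ones with the largest difference. None passed the test (limma adjusted p = 1 for each), and the size of each difference was part of its choice. Klf10, a zinc-finger factor induced early by TGF-beta, had 8.16, 8.2 and 8.35 in deficient arrays, 9.12, 8.78 and 8.96 in sufficient arrays and 8.44, 8.44 and 8.08 in wild-type arrays. Its deficient signal was 0.609 times the sufficient one, a difference of -0.72 (SE 0.12, limma unadjusted p = 0.000222), and the deficient mean of 8.24 ± 0.10 lay near the wild-type mean of 8.32 ± 0.21 (SD, n = 3 each).

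Other leading genes with lower signal belonged to varied processes. Alpl, tissue-nonspecific alkaline phosphatase, had 8.90, 8.83 and 9.15 in deficient and 9.36, 9.41 and 9.65 in sufficient arrays (-0.51). Rtn4r, the Nogo receptor, differed by -0.46, and Slc16a1, a lactate and pyruvate transporter, by -0.29. Txnip, which binds thioredoxin and restrains glucose uptake, had 12.53, 12.34 and 12.62 in deficient and 12.85, 13.02 and 12.95 in sufficient arrays (-0.44). Ltc4s, leukotriene synthase, differed by -0.45, Ifrd2 by -0.27 and the muscle F-box gene Fbxl22 by -0.44. Tfrc, the transferrin receptor, differed by -0.65, but its wild-type arrays ran from 8.0 to 10.42, and the interval of the diet difference was -1.84 to 0.53.

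The position of the wild-type arrays was read beside these 18 genes, with the caution that the sufficient arrays helped to choose them. In 9 the wild-type mean lay between the diet groups, as in Klf10 and Acta2. In 6 it lay beyond the sufficient mean (Retnla, Ccl6, Lyve1, Dhrs3, Nppa and Upk3b), and in 3 beyond the deficient mean (Ifrd2, Tfrc and Txnip). In the authors' deposited table, which gives a diet ratio after modelling scan date, all 18 genes had the same direction and 14 had a p under 0.05. That table's p was under 0.05 for 818 of the genes in all. It comes from the same arrays that chose the 18 genes, so neither their direction nor their p there is separate support.

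**Figure D3:**
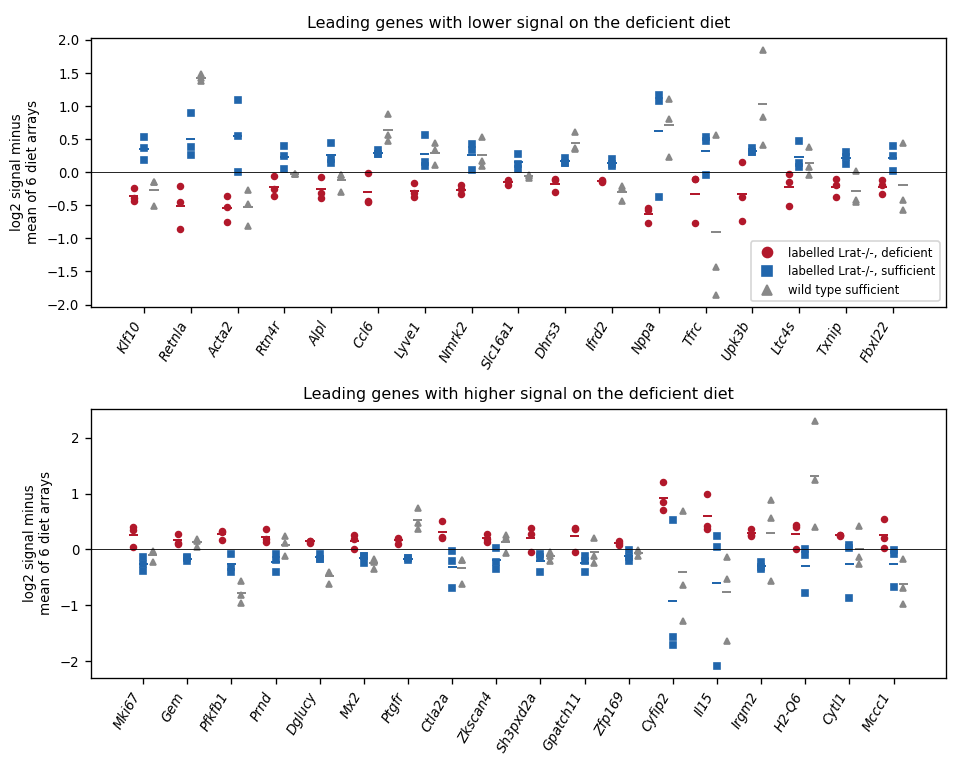
Log2 signal of each array minus the mean of the 6 arrays of the diet comparison (y axis) for 17 of the 18 leading genes with lower signal (top) and the 18 with higher signal (bottom) on the deficient diet. Red circles are deficient, blue squares sufficient and grey triangles wild-type arrays, and short lines are group means. In each of these genes every deficient array lies on one side of every sufficient array, as the choice of genes requires.

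Genes of the cardiac stress response were mostly lower on the deficient diet, but the arrays numbered 3 went the other way for several. Of 24 such genes, 18 were lower and 6 higher, with a median difference of -0.056. That median was -0.100 and -0.156 between the arrays numbered 1 and 2, and 0.109 between those numbered 3. Nppa, atrial natriuretic peptide, had 9.84, 9.88 and 9.65 in deficient arrays, 11.49, 11.58 and 10.04 in sufficient arrays and 11.22, 11.52 and 10.65 in wild-type arrays. The groups did not overlap, but the difference was -1.66 for number 1, -1.70 for number 2 and -0.39 for number 3 (mean -1.25, 95% interval -2.09 to -0.41, limma unadjusted p = 0.0083). Nppb, brain natriuretic peptide, had 7.18, 7.77 and 8.34 in deficient arrays against 8.48, 8.87 and 7.73 in sufficient arrays, and its groups overlapped through the arrays numbered 3. Acta1, skeletal actin, which returns in strained ventricle, had 10.95, 10.76 and 11.05 in deficient arrays against 12.08, 12.06 and 10.87 in sufficient arrays, with the same exception. The stretch-responsive Ankrd1 differed by -0.37 with overlapping arrays. Nmrk2, a muscle kinase that makes NAD from nicotinamide riboside, had 7.20, 7.13 and 7.26 in deficient and 7.49, 7.89 and 7.79 in sufficient arrays, without overlap (-0.53).

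Because Nppa is also abundant in atria, atrial markers were read beside it. Of 12 such markers 6 were higher and 5 lower, with a median difference of 0.050 that was -0.056 without the deficient array numbered 3. The median of the markers, each relative to its mean over the arrays, ranged from -0.065 to 0.029 in deficient, -0.042 to 0.013 in sufficient and -0.040 to 0.063 in wild-type arrays. Named after their values were seen, the defining atrial genes Sln and Bmp10 were below the negative controls in both diet groups, and Myl7 and Myl4, the atrial myosin light chains, differed by 0.28 and 0.19. Without the arrays numbered 3 the Myl7 difference was -0.21.

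Among the named muscle genes with lower signal, Acta2, smooth muscle actin, had the largest difference after Nppa. It had 11.92, 12.09 and 11.70 in deficient arrays, 13.54, 13 and 12.46 in sufficient arrays and 11.64, 12.18 and 11.97 in wild-type arrays. The sufficient arrays were high and spread, at 13 ± 0.54, against 11.90 ± 0.20 in deficient and 11.93 ± 0.27 in wild-type arrays (SD, n = 3 each). The difference was -1.10 (SE 0.25, limma unadjusted p = 0.0015). The arrays of other smooth muscle and pericyte markers overlapped, though the contractile genes named below were lower as well. Of 21 smooth muscle and pericyte markers, 13 were higher and 8 lower with a median of 0.010 (-0.028 to 0.027 when 1 array was left out). Acta2 alone had non-overlapping arrays, which is 1 of 21 beside 3.26% of all genes on the lower side. Cnn1, calponin, differed by -0.24 and Myl9 by -0.29, and, named after their values were seen, Tagln by -0.13 and Myh11, smooth muscle myosin, by -0.07. The median of these markers per array ranged from -0.031 to 0.029 in deficient and -0.088 to 0.043 in sufficient arrays.

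Srf, serum response factor, which drives actin and natriuretic peptide genes, had the lowest p of the 31 cardiac transcription factors. It had 9.99, 10.05 and 10.09 in deficient arrays, 10.40, 10.22 and 10.62 in sufficient arrays and 10.17, 10.43 and 10.20 in wild-type arrays. The diet groups did not overlap, and the difference was -0.37 (95% interval -0.62 to -0.13, limma unadjusted p = 0.00766). Of the 31 factors 18 were higher and 13 lower, with Gata5 at -0.32 and Hand1 at -0.22. The promoter of Srf is shown because the factor is known to bind its own gene through CArG boxes. It lies at chr17:46556163-46556412 on the minus strand (RefSeq, GRCm38.p6), and capitals mark matches to the CArG box on either strand.
Srf: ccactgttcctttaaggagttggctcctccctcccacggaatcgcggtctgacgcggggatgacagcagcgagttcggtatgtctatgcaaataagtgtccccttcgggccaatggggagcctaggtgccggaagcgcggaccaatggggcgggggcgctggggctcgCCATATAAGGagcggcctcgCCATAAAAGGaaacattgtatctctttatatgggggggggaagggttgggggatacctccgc
The box matched 2 times, starting 82 and 62 bases before the start, and 439 of 27025 genes (1.62%) held at least 1 in this window. Among the 15 leading lower genes with a promoter in the table, Fbxl22 alone held one. A gene without a match may still hold a box outside this window or a variant of the box.

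**Figure D4:**
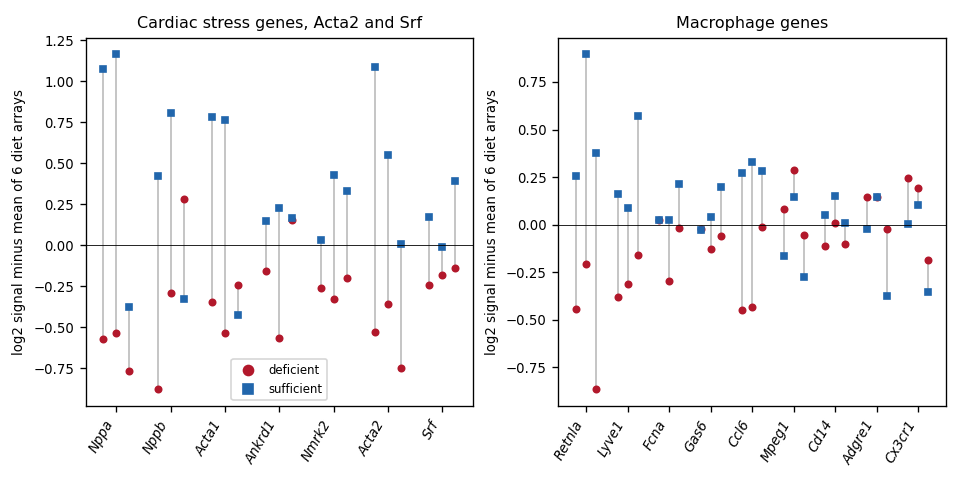
Log2 signal minus the mean of the 6 arrays of the diet comparison (y axis), with deficient (red circles) and sufficient (blue squares) arrays of the same number joined, numbers 1 to 3 running left to right within each gene. For Nppb and Acta1 (left) the arrays numbered 3 run opposite to the others; for Retnla, Lyve1 and Ccl6 (right) all deficient arrays lie lower.

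Genes around TGF-beta signalling gave a mixed picture below Klf10. Of 43 ligands, receptors and response genes, 28 were lower and 15 higher, with a median of -0.044. It ranged from -0.068 to -0.033 when 1 array was left out. The diet groups did not overlap for 5 genes on the lower side and 0 on the higher side, beside 3.26% and 1.96% of all genes. Tgfb2, a TGF-beta ligand, had 8.04, 7.74 and 7.87 in deficient arrays and 8.08, 8.17 and 8.15 in sufficient arrays (-0.25), and Pmepa1, a feedback inhibitor induced by the pathway, differed by -0.21. Bmp6, a ligand of the BMP branch, differed by -0.18. Of 17 Kruppel-like factors 11 were lower and 6 higher; after Klf10 the nearest relative Klf11 differed by -0.20 and Klf4 also by -0.20, and the arrays of Klf4 did not overlap. The 51 extracellular matrix genes were split, with 30 higher and 21 lower. Their median of 0.024 was -0.015 without the sufficient array numbered 1. The matrix protease Mmp3 differed by -0.29, with deficient signal below the negative-control mean and sufficient signal barely above it, so this is no measure of its size, and the collagen gene Col6a3 by 0.19.

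Markers of resident, alternatively activated macrophages were mostly lower on the deficient diet, and general macrophage markers were split. Retnla, a secreted protein of such macrophages, had 5.48, 5.72 and 5.06 in deficient arrays, 6.18, 6.82 and 6.30 in sufficient arrays and 7.35, 7.41 and 7.31 in wild-type arrays. The deficient mean lay 0.27 below the negative-control mean, so the difference of -1.02 (95% interval -1.45 to -0.59) does not give its full size. Lyve1, a hyaluronan receptor of resident macrophages and lymphatic vessels, had 8.66, 8.73 and 8.88 in deficient arrays and 9.20, 9.13 and 9.61 in sufficient arrays (-0.56, limma unadjusted p = 0.0027). Ccl6, a chemokine of myeloid cells, had 6.67, 6.69 and 7.11 in deficient and 7.39, 7.45 and 7.40 in sufficient arrays (-0.59). Of 18 markers of these macrophages, 13 were lower and 5 higher, with a median of -0.113 and non-overlapping arrays for 5, all lower, beside 3.26% of all genes. That median was -0.007 and -0.045 between the arrays numbered 1 and 2, -0.201 between those numbered 3, and -0.060 without the deficient array numbered 3. Per array, the median of these markers ranged from -0.042 to 0.019 in deficient and -0.009 to 0.111 in sufficient arrays, so the diet groups overlapped. The complement lectin gene Fcna differed by -0.19, and Timd4 and F13a1, named after their values were seen, by -0.13 and -0.08. Fcna was among the 5 markers counted as non-overlapping, but its nearest deficient and sufficient arrays both rounded to 7.15. The markers named here were all lower, while the 5 higher ones, not named, reached 0.22. Ccl6 is not among the 18 markers.

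Of 26 general macrophage and monocyte markers, 16 were higher and 10 lower, with no separated gene. Their median of 0.019 was -0.031 without the deficient array numbered 3 and 0.080 without the sufficient array numbered 2. Adgre1, the F4/80 antigen, differed by 0.17, Mpeg1 by 0.20, Cx3cr1 by 0.16 and Cd14 by -0.13. Lyve1 is also a lymphatic marker, and of 7 lymphatic endothelial markers 5 were lower, with a median of -0.078 that was -0.280 in the arrays numbered 3 and 0.004 in each of the other pairs. Flt4, the lymphatic growth factor receptor, differed by -0.15 and Ccl21a by -0.11. Whether fewer cells or other transcripts per cell moved with these markers was not tested.

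Mesothelial and epicardial markers also lay lower, with 22 of 24 below 0 and a median of -0.094, which was -0.061 without the sufficient array numbered 2. Upk3b, a uroplakin of mesothelium, had 7.89, 7.0 and 7.36 in deficient arrays, 8.04, 8.04 and 8.11 in sufficient arrays and 9.59, 8.15 and 8.58 in wild-type arrays. Krt18, an epithelial keratin, differed by -0.20 and Efemp1 by -0.26, both without overlap, while Igfbp5 differed by 0.23, also without overlap. Of the 24 markers, 3 lay apart on the lower and 1 on the higher side, beside 3.26% and 1.96% of all genes. The median difference was -0.012, -0.206 and -0.091 between the arrays numbered 1, 2 and 3. The median of these markers per array ranged from -0.138 to 0.042 in deficient, 0.036 to 0.088 in sufficient and 0.177 to 0.502 in wild-type arrays. How much surface tissue each sample held was not measured.

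The leading genes with higher signal on the deficient diet were chosen in the same way. Mki67, a nuclear protein of dividing cells, had 6.42, 6.78 and 6.71 in deficient arrays, 5.99, 6.24 and 6.11 in sufficient arrays and 6.14, 6.35 and 6.32 in wild-type arrays. The difference was 0.52 (SE 0.11, limma unadjusted p = 0.00114), at a signal 0.95 above the negative controls in deficient arrays. Of 34 genes of the G2 and M phases, 25 were higher and 9 lower with a median of 0.044. Ube2c, which marks mitotic proteins for destruction, differed by 0.30 without overlap and Prc1, which bundles spindle microtubules, by 0.34 with overlap and with sufficient signal below the negative-control mean. Of 27 S phase genes 16 were higher and 11 lower (median 0.030), with the ribonucleotide reductase gene Rrm2 at 0.18. Only 24 of the 34 and 26 of the 27 had signals above the negative controls.

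Pfkfb1, which sets fructose 2,6-bisphosphate and so the rate of glycolysis, had 10.36, 10.39 and 10.22 in deficient arrays, 9.65, 9.98 and 9.75 in sufficient arrays and 9.25, 9.09 and 9.49 in wild-type arrays. The 3 groups did not overlap, and the diet difference was 0.53 (95% interval 0.26 to 0.80, limma unadjusted p = 0.00164). Dglucy, D-glutamate cyclase of mitochondria, was similar in order, with 9.38, 9.37 and 9.34 in deficient, 9.05, 9.05 and 9.14 in sufficient and 8.81, 8.80 and 8.61 in wild-type arrays. Gem, a small GTPase that restrains calcium channels, had 7.18, 7.36 and 7.20 in deficient and 6.94, 6.92 and 6.87 in sufficient arrays (0.34). Ptgfr, the prostaglandin F receptor, differed by 0.33, and Sh3pxd2a, a podosome scaffold, by 0.41. Ctla2a, a protease inhibitor, had 5.85, 5.84 and 6.14 in deficient and 5.60, 5.42 and 4.94 in sufficient arrays, but the sufficient and wild-type means lay below the negative-control mean, so its difference of 0.62 is no measure of size. Prnd, the prion-like protein doppel, differed by 0.46, Gpatch11 by 0.48, and the zinc-finger genes Zkscan4 and Zfp169 by 0.38 and 0.24.

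The 6 added for their size were less even. Cyfip2, part of the complex that drives actin branching, had 10.06, 10.20 and 10.57 in deficient arrays, 7.79, 7.65 and 9.88 in sufficient arrays and 10.04, 8.72 and 8.09 in wild-type arrays. The cytokine gene Il15 had 8.96, 8.91 and 9.54 in deficient arrays and 8.78, 8.58 and 6.46 in sufficient arrays, a difference of 1.2 (95% interval -0.12 to 2.52) that was 0.46 without the sufficient array numbered 3. Mccc1, an enzyme of leucine breakdown, differed by 0.51 and by 0.30 without the sufficient array numbered 1. The secreted Cytl1 had 8.69, 8.66 and 8.69 in deficient and 7.55, 8.50 and 8.46 in sufficient arrays, a difference of 0.51 that was 0.19 without the sufficient array numbered 1. Of the 18 genes with higher signal, the wild-type mean lay between the diet groups in 10, beyond the sufficient mean in 6 and beyond the deficient mean in 2 (Ptgfr and H2-Q6). In the authors' deposited table all 18 had the same direction, and 8 had a p under 0.05. Here too the same arrays had chosen the genes, so this is no separate support.

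Interferon response genes had the highest median of all lists, 0.135, with 41 of 46 measured genes higher and 5 lower. The arrays did not overlap for 3 of them, beside 1.96% of all genes on that side. Mx2, an antiviral GTPase, had 5.97, 5.72 and 5.89 in deficient and 5.60, 5.60 and 5.46 in sufficient arrays, close to the negative controls. Irgm2, an immunity-related GTPase, had 8.44, 8.55 and 8.41 in deficient and 7.86, 7.82 and 7.95 in sufficient arrays, but 7.61 to 9.06 in wild-type arrays. Per array, the median of the list ranged from -0.004 to 0.200 in deficient, -0.195 to 0.041 in sufficient and -0.111 to 0.375 in wild-type arrays, so the diet groups overlapped. Left-out arrays moved it between 0.046, without the deficient array numbered 1, and 0.180. Antigen presentation genes were higher in 22 of 27, with a median of 0.088 that was 0.009 between the arrays numbered 2, and 0.034 without the sufficient array numbered 3. Among them were H2-Q6, a class I gene that resembles its neighbours and may share probes with them, at 0.57 and B2m, the common light chain, at 0.18.

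The lists of oxidative phosphorylation and fatty acid oxidation genes each had a small upward median with all 6 arrays. Of 80 genes of oxidative phosphorylation 68 were higher and 12 lower, with a median of 0.075. By complex, 34 of 37 genes of complex I, 1 of 4 of complex II, 9 of 9 of complex III, 11 of 14 of complex IV and 13 of 16 of the ATP synthase were higher. The median was 0.033 and 0.020 between the arrays numbered 1 and 2 and 0.174 between those numbered 3, and it was 0.034 without the arrays numbered 3. With array weights it was -0.007, on the other side of 0. Per array, the median of these genes ranged from -0.069 to 0.126 in deficient and -0.081 to 0.035 in sufficient arrays, so the diet groups overlapped. Ndufa4 had 9.93, 10.30 and 10.59 in deficient and 9.82, 9.93 and 9.70 in sufficient arrays (0.46), and Cox7b, a subunit of cytochrome oxidase, had 0.34. Beta-globin genes ran with the arrays numbered 3 as well: Hbb-bt, which shares sequence with its neighbouring copies, had 12.66, 12.65 and 13.22 in deficient against 12.51, 12.63 and 12.31 in sufficient arrays, and the part of this pattern in the mitochondrial genes was not tested. Of 38 fatty acid oxidation genes 29 were higher (median 0.049). Of 25 targets of PPAR, a partner of RXR, 20 were higher, with a median of 0.052 that was 0.020 without the deficient and 0.118 without the sufficient array numbered 2. Among them was the fatty acid hydroxylase Cyp4b1 at 9.49, 9.52 and 9.46 in deficient and 8.92, 9.19 and 9.29 in sufficient arrays. Targets of LXR (6 of 12 higher) and of thyroid hormone (8 of 17 higher), the other RXR partners examined, had medians of 0.003 and -0.001.

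**Figure D5:**
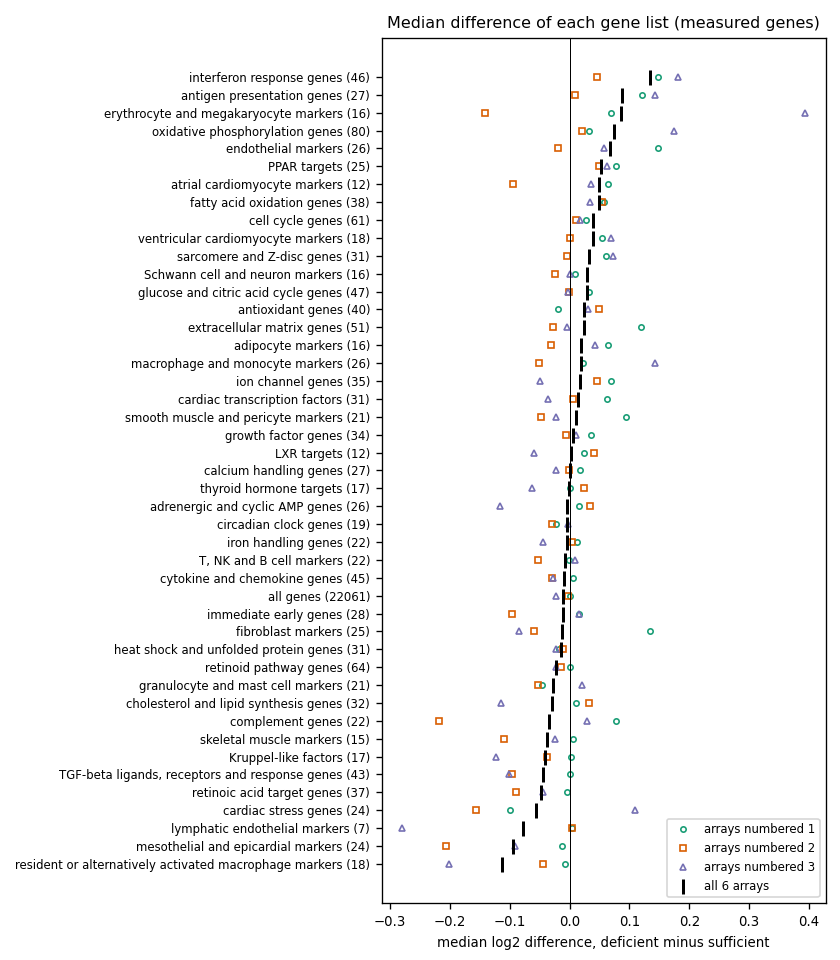
Median log2 difference, deficient minus sufficient diet (x axis), of each gene list, with the number of measured genes in brackets. Black bars use all 6 arrays and open symbols the arrays of 1 number; interferon response genes lie highest at 0.135 and resident macrophage markers lowest at -0.113 (-0.060 without the deficient array numbered 3, which is nearer to 0 than the -0.094 of mesothelial markers), and all genes lie at -0.011.

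Genes of several other lists are given by the rule of lowest p. Kcnip2, the subunit that shapes the transient outward potassium current, had 10.79, 10.65 and 10.46 in deficient arrays and 10.92, 10.96 and 10.92 in sufficient arrays (-0.30, limma unadjusted p = 0.0163). Over 35 ion channel genes 21 were higher and 14 lower. Gpx3, the secreted glutathione peroxidase, had 10.92, 11.05 and 10.96 in deficient and 11.24, 11.21 and 11.52 in sufficient arrays (-0.35, limma unadjusted p = 0.00625), among 40 antioxidant genes of which 25 were higher and 15 lower. The diet groups did not overlap for 4 antioxidant genes on the lower and 1 on the higher side. Of 34 growth factor genes, 1 lay apart on the lower and 5 on the higher side. Over all genes these shares were 3.26% on the lower and 1.96% on the higher side. Ednra, an endothelin receptor, differed by -0.23, with a deficient array at 10.97 and a sufficient one at 10.98. Fgf2 differed by 0.47, which was 0.69, 0.71 and 0.01 between the arrays numbered 1, 2 and 3, and 0.26 without the deficient array numbered 2. Cdh5, the cadherin of endothelial junctions, had 11.07, 11.04 and 11.20 in deficient and 10.87, 10.88 and 10.83 in sufficient arrays (0.24), while the water channel Aqp1 had -0.42 with overlap, and 19 of 26 endothelial markers were higher. Their median of 0.068 was -0.019 between the arrays numbered 2, and 0.028 without the sufficient array numbered 1. Ppbp, a platelet chemokine, had 8.06, 7.98 and 7.60 in deficient and 9.24, 8.50 and 7.90 in sufficient arrays (-0.67), and the platelet integrin Itga2b differed by -0.25, both with overlap. Sarcomere genes (22 of 31 higher, median 0.032), calcium handling genes (13 higher and 13 lower of 27) and circadian clock genes (9 of 19 higher) had medians between -0.005 and 0.032.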

How the data were processed

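RNA from 9 right ventricle samples was measured on Affymetrix arrays, 3 per group. Values are log2 signals from RMA as the authors deposited them; the submitters' processing notes name R 3.1.2 and mm8. A second deposited table pairs probe sets with genes; its 9 value columns match no sample label and were not used, so the 2 scan dates in their names could not be tied to samples. The authors' ratio and p-value come, per the file headers, from an ANOVA that included scan date. Gene names were updated through RefSeq (22115 by accession, 1815 by symbol, 625 by synonym, 910 kept). Each of 22061 genes was read from its brightest probe set, by the mean of 9 arrays.

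Deficient minus sufficient was tested with limma 3.58.1 in R 4.3.3 over all 9 arrays with group means and Benjamini-Hochberg adjustment (6 residual and 3.34 prior degrees of freedom). Arrays of the same number deviated together in every pair (r 0.138 to 0.391 over 9 pairs). Between numbers r was -0.365 to 0.223, so the ranges overlap. No label says that the numbers pair the samples, so a pairing is inferred and not known. The fit with the number as a block is given where it moves a count. Each p, SE and interval printed for a gene comes from the fit without that block, unless another setting is named. Genes were named by rule. Per direction it took the 12 lowest p and 6 largest differences among genes with non-overlapping arrays, after the omissions given with the leading genes. A leading gene had to lie above the negative-control mean in the deficient or the sufficient arrays. Retnla, Mx2 and Ctla2a did so only in the diet group where they were higher. The rule also took all retinoid genes, and the 4 lowest p of each list. A few genes chosen by it are left out of the text. The fit was tested on simulated data. The members, the 27 gene lists and 15 marker lists (1187 genes, 1179 measured) and the rule were chosen with earlier results of these data known. Figures used matplotlib 3.10.9.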

Additional observations from a re-analysis of the deposited data

How the results depend on the processing

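The count of called genes was 0 in both directions in all other settings run except array weights, where 0 were higher and 2 lower. These were Ccl6 (-0.73, limma adjusted p = 0.0491) and 1700031F05Rik, named after its value was seen; array weights let the arrays count unequally, and the cause was not tested. Genes at an unadjusted p under 0.05 numbered 290 in the fit as reported, 533 with the replicate block, 591 with number 3 against numbers 1 and 2 as a block, 580 without the arrays numbered 3, 1652 with array weights, and 233 to 451 when 1 array was left out, against 290. The replicate block changed no call. The Lrat difference lay between -0.29 and -0.07 when 1 array was left out. Of 104 named genes over 18 settings, 1843 of 1868 results kept direction and call, and 24 changed sign, all of them uncalled differences. Without the arrays numbered 3 the difference was 0.08 for Aldh1a1, 0.11 for Aldh1a2, -0.01 for Aldh1a3, 0.02 for Cyp26a1, -0.21 for Myl7, 0.01 for Rara and 0.06 for Rxra. With array weights it was 0.04 for Aldh1a1, 0.05 for Aldh1a2, 0.01 for Cyp26a1, -0.03 for Myl4, -0.19 for Myl7 and 0.01 for Rxra. With 1 array left out the sign turned for Aldh1a1 (-0.19 to 0.11), Aldh1a2 (-0.16 to 0.18), Aldh1a3 (-0.03 to 0.07), Cyp26a1 (-0.17 to 0.07), Myh11 (-0.26 to 0.08), Myl4 (-0.06 to 0.32), Myl7 (-0.19 to 0.54), Rara (-0.08 to 0.01), Rxra (-0.10 to 0.07) and Tagln (-0.39 to 0.01). Of 103 single-gene differences, 52 moved by over 1.5 times or changed sign when 1 array of either diet group was left out. Of 1008 list medians, 964 stayed within 1 SD of the arrays' medians. With array weights the median of the oxidative phosphorylation genes was -0.007. The medians of the lists moved too when 1 array was left out: from 0.020 to 0.068 for the G2 and M phase genes, 0.002 to 0.032 for S phase, -0.084 to -0.035 for cardiac stress, 0.029 to 0.050 for fatty acid oxidation and -0.161 to -0.020 for lymphatic markers. They changed sign for LXR targets (-0.024 to 0.012), thyroid hormone targets (-0.021 to 0.043), calcium handling (-0.019 to 0.001) and circadian clock genes (-0.068 to 0.072). Low signals limit the reading of Retnla, Mx2, Ctla2a, Mmp3, Prc1, Rdh12, Aldh8a1, Cyp26a1 and the G2 and M phase genes.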

Other observations

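Histone genes that are transcribed in dividing cells lay higher on the deficient diet as a group chosen after the values were seen. Of 7 measured H3c genes, 6 were above the negative controls, and H3c15 was not. These 6 were higher by 0.43 (H3c8) to 0.50 (H3c14), and their diet arrays did not overlap, beside 1.96% of all genes on that side. The mean log2 signal of the 6 was 10.66 in deficient, 10.20 in sufficient and 10.67 in wild-type arrays. In each of the 6 genes the sufficient array numbered 2 lay above the wild-type array numbered 1, as in H3c1 with 10.44 in the sufficient and 10.36 in the wild-type array, and the wild-type array numbered 2 was highest, at 11.37 in H3c1. These genes are near-identical copies whose probe sets share sequence, so they are not separate measurements, and the lowest unadjusted limma p among them was 0.0608. Of the other families, 10 of 11 H2ac genes, 8 of 10 H2bc genes and 7 of 9 H4c genes were higher, with medians of 0.18, 0.15 and 0.10, and 3 of the H2ac genes were not above the negative controls.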
